A study of Mus musculus with 9 samples.

Results

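Large CGRP neurons without Trpv1 are trigeminal sensory neurons whose barcodes carried both Nefh, the gene of the heavy neurofilament found in large myelinated axons, and Calca, the gene of calcitonin gene-related peptide (CGRP). The 89 cells were chosen from 3855 neurons among 6997 cell barcodes, 2.31% of the neurons (exact binomial 95% interval 1.86 to 2.83%). A neuron was a barcode with 500 to 7500 genes, a transcript of at least 3 of the 6 genes Tubb3, Scn9a, Snap25, Nefl, Nefm and Uchl1, and no Epcam. A large CGRP neuron had in addition at least 5 unique molecular identifiers (UMIs, each a tag that marks 1 captured transcript) of Nefh, at least 5 of Calca, and 0 of the heat and capsaicin channel Trpv1, the cold channel Trpm8, the irritant channel Trpa1 and the BDNF receptor Ntrk2. Cell size and myelin were not measured, so large and myelinated describe the gene that selected the cells.

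The trigeminal ganglia came from untreated wild-type FVB/N mice, 3 to 6 weeks old by the labels and 3 to 5 weeks old by the study's methods, with 20 to 30 mice of both sexes pooled in each of 9 Drop-seq runs. Drop-seq captures single cells with barcoded beads in droplets and counts transcripts from their 3′ ends. The cells had passed a Percoll gradient and a kit that removes glia. The single table of counts does not say which barcode came from which run, so the cells formed 1 sample, no test between groups was possible, and every interval covers counting error only.

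CGRP widens blood vessels and is released from trigeminal endings in the meninges, where its receptor is a drug target in migraine. Most sensory neurons that make it are small, slow-conducting C-fibre nociceptors that respond to heat and capsaicin and also make substance P. A further kind, known from dorsal root ganglia as peptidergic A-fibre nociceptors, combines CGRP with neurofilament-rich, faster-conducting axons and is known for sharp mechanical pain.

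The 89 cells held 1044723 UMIs, with a median of 7034 per cell (lowest 1190, highest 50973) and a median of 3032 genes. They were set beside 3 classes cut from the same table. Large neurons without CGRP (181 cells, median 3530 UMIs) had at least 5 UMIs of Nefh and 0 of Calca, Trpv1, Trpm8, Trpa1 and Ntrk2. CGRP neurons with Trpv1 (862 cells, median 3383 UMIs) had at least 5 UMIs of Calca, under 5 of Nefh, at least 1 of Trpv1 and 0 of Trpm8 and Ntrk2. Ntrk2 large neurons (66 cells, median 7901 UMIs), the class that holds touch neurons with the BDNF receptor, had at least 5 UMIs of Nefh, at least 3 of Ntrk2 and none of Trpv1, Trpm8 or Trpa1. Because deeper cells show more genes, shares of cells with a UMI are also given after each cell was thinned to 1000 randomly drawn UMIs. Levels are CPM, the UMIs of a gene in every 1000000 UMIs of the pooled cells of a class, with an exact Poisson 95% interval, and every ratio given is the log2 ratio of these levels, the 89 cells over the class named, with an exact 95% interval where it is printed. Values listed for the 3 classes stand in the order in which the classes are introduced here. No doublets were removed, and the 6 barcodes that occur more than once in the table were not among the large CGRP neurons.

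The rule set the levels of Nefh and Calca, which are given as a description. Nefh ran from 5 to 287 UMIs per cell with a median of 13, and its pooled level was 2833 CPM, beside 2864 CPM in large neurons without CGRP, 3681 CPM in Ntrk2 large neurons and 209.5 CPM in CGRP neurons with Trpv1. Calca ran from 5 to 523 UMIs per cell with a median of 31, and its pooled level was 5903 CPM, against 12060 CPM in CGRP neurons with Trpv1. Both genes thus spread widely within the 89 cells, and 7 cells held Calca and 15 held Nefh at under 1000 CPM of the cell. The counts of Calca, on chromosome 7 at 114631478 to 114636357 (GRCm38), do not separate CGRP from calcitonin transcripts. Its near copy Calcb lies on the same chromosome at 114718643 to 114723365, and the split of reads between the pair is uncertain.

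**Figure D1:**
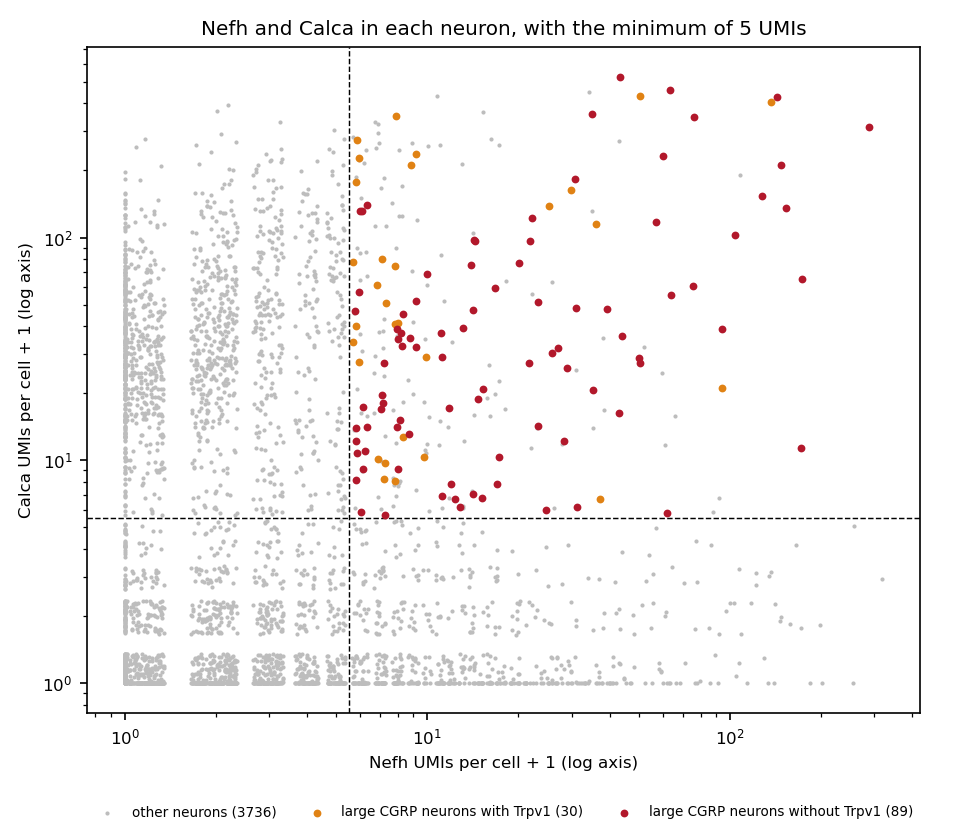
Nefh and Calca UMIs in each of the 3855 neurons, as counts plus 1 on log axes, with each point a cell (slightly displaced at random) and the lines at the minimum of 5 UMIs. The 89 large CGRP neurons lie in the upper right, from 5 to 287 UMIs of Nefh and from 5 to 523 of Calca, since the rule placed them there, among the 30 cells with Trpv1 and grey cells that held a UMI of another excluded gene.

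Few neurons met both minimums. Of 881 neurons with at least 5 Nefh UMIs, 245 also had at least 5 of Calca, and among these 110 had a UMI of Trpv1, 92 of Trpa1, 30 of Trpm8 and 19 of Ntrk2. The zeros are met more easily by shallow cells, and the median depth was 11081.5 UMIs when the conditions on Trpv1, Trpm8 and Trpa1 were dropped (226 cells). Leaving only the condition on Trpv1 unmet gave 30 further cells, of which 17 held exactly 1 Trpv1 UMI. In these 30 cells Scn10a was at 639 CPM beside the 533 CPM of the 89, whereas Tac1 was at 1661 against 435 CPM and S100a16 at 77.0 against 318 CPM.

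Around the Nefh minimum Thy1 and Tac1 changed by degrees, and around the Calca minimum Scn10a did not change in order. The 19 cells with 5 or 6 Nefh UMIs had Thy1 in 57.9% and Tac1 at 1607 CPM. The 37 cells with 3 or 4 Nefh UMIs that met all other conditions had Thy1 in 37.8% and Tac1 at 2157 CPM. Near the Nefh minimum, then, the substance P gene was several times its pooled level over the 89. The 16 cells with 5 to 9 Calca UMIs had Scn10a in 37.5%, and the 16 cells with 3 or 4 had it in 68.8%. In the 61 cells with 1 or 2 Calca UMIs the share was 57.4%, so that Scn10a was least frequent in the cells just inside the minimum, beside 82.0% over all 89. The cells just inside were also shallower, with a median of 2511.5 UMIs against 4067 and 6027.

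The label was checked with Thy1, S100a16 and Htr3a, which the study lists together, from the same data, among the genes enriched in a cluster of neurons, so that their direction is not independent evidence. Thy1, a surface glycoprotein of many projecting neurons (chromosome 9, 44043384 to 44048579), was found in 72 of 89 cells (80.9%, 71.2 to 88.5%), with 0 to 81 UMIs per cell and a median of 4. Its level was 776 CPM (724 to 832) beside 374 CPM in large neurons without CGRP, 547 CPM in Ntrk2 large neurons and 26.5 CPM in CGRP neurons with Trpv1. Thy1 thus set the cells apart from CGRP neurons with Trpv1 by a log2 ratio of 4.87 (4.58 to 5.17). The ratio to large neurons without CGRP was 1.05 (0.88 to 1.23). The latter ratio was −0.088 when the conditions on Trpv1, Trpm8 and Trpa1 were dropped, and from 0.66 to 1.26 under the other alternatives, so its 2-fold call was not stable.

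S100a16, a calcium-binding protein, and Htr3a, a subunit of the serotonin-gated cation channel, were each detected in a minority of the 89 cells. S100a16 was found in 36.0%, with 0 to 75 UMIs per cell, a median of 0 and 22.6% of all its UMIs in 1 cell. Its level of 318 CPM compared with 47.1, 2.39 and 19.0 CPM in large neurons without CGRP, CGRP neurons with Trpv1 and Ntrk2 large neurons. Htr3a was found in 38.2%, again with a median of 0, at 190 CPM against 35.6, 26.5 and 75.8 CPM. Of the 89 cells, 15 had a UMI of both genes, 19 of Htr3a alone, 17 of S100a16 alone and 38 of neither. A cell without a UMI is not shown to lack the gene, so these counts do not decide whether either gene marks the whole class.

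**Figure D2:**
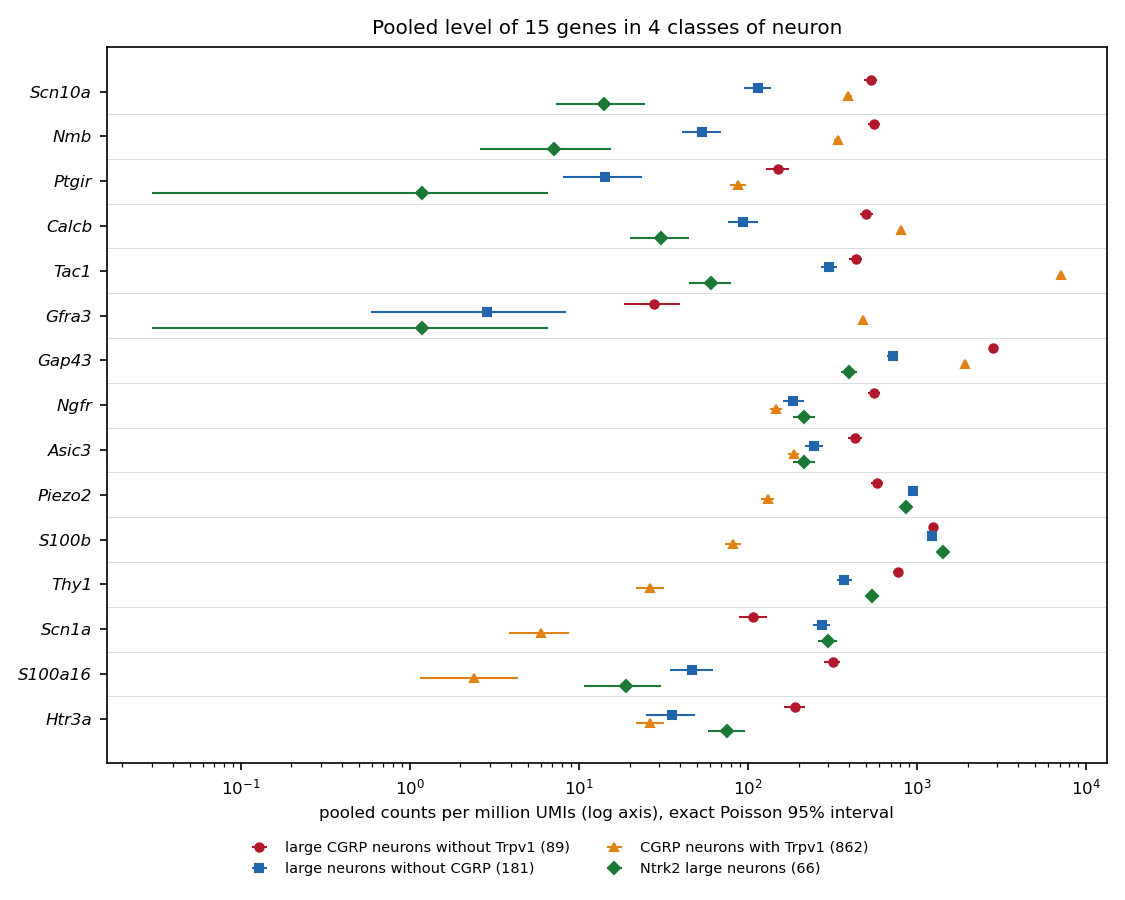
Pooled level in CPM, on a log axis, of selected genes in the 4 classes, with exact Poisson 95% intervals as bars. Scn10a and Nmb sit nearer to the CGRP neurons with Trpv1, and Thy1, S100b and Piezo2 nearer to the 2 other large classes.

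In pooled levels, markers of other cells were not particular to these neurons, but single cells held many. Glial markers (11 genes, 9 with a UMI, Fabp7 and Sostdc1 at 0) summed to 1065 CPM, beside 1351, 778 and 1168 CPM in the 3 comparison classes and 93474 CPM in 125 glial barcodes. The median of the glial markers over single cells was 805 CPM of the cell, above the 459, 574 and 468 CPM of the 3 classes. The highest of the 89 cells, at 25564 CPM, was below the highest cell of each class. A UMI of selected myelinating glia markers, Mbp among them, was present in all but 41 of the 89 cells. Haemoglobin and the other red blood cell markers summed to 2897 CPM, against 3951, 6524 and 2031 CPM. In single cells they reached 340690 CPM of the cell, against 405610, 149477 and 89538 CPM in the 3 classes. Endothelial markers summed to 62.2 CPM, all from Egfl7, and immune markers to 2.87 CPM. What part such RNA plays in the comparisons was not tested. As a measure of free RNA, 125 glial barcodes (median 1349 UMIs) had Calca in 11.2% and 434 red blood cell barcodes (median 1365.5 UMIs) had Calca in 11.8% and Tac1 in 8.76%.

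On the large-neuron side, S100b and Cntnap1 were within 2-fold of the other Nefh classes, whereas Scn1a and Pvalb were lower than in both. The calcium-binding proteins as a list, described below, differed from these classes. A gene was entered in a comparison when the mean of its shares in both classes was at least 10%, and called when its levels differed more than 2-fold, with a class under 3 UMIs set to 3. Against CGRP neurons with Trpv1, 424 of 7936 genes (5.34%) were called higher and 401 (5.05%) lower. Of 21 genes of large and myelinated sensory neurons, 11 were entered and 10 called higher there, 0 lower, with a median log2 ratio of 3.54 beside −0.03 over all genes. S100b, which in ganglia marks large neurons and glia, was found in 85.4% of the 89 cells (57.3% thinned) at 1245 CPM (1179 to 1315). It was at 1232 CPM in large neurons without CGRP, a log2 ratio of 0.02 (−0.10 to 0.13), and at 82.2 CPM in CGRP neurons with Trpv1. Without the conditions on Trpv1, Trpm8 and Trpa1 the ratio to large neurons without CGRP was −1.17. Kcna1, the juxtaparanodal potassium channel subunit, Cntnap1, a protein of the paranodal axon-glia junction, and Syt2, a fast synaptotagmin, exceeded CGRP neurons with Trpv1 by 4.37, 2.77 and 2.47.

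The same list did not separate the cells from large neurons without CGRP. In that comparison 359 of 8054 genes (4.46%) were called higher and 340 (4.22%) lower, and of the 14 listed genes entered 1, Thy1, was called higher and 2, Scn1a and Pvalb, lower. Scn1a, the Nav1.1 sodium channel, was found in 39.3% of the 89 cells (7.87% thinned) at 108 CPM, against 65.2% (29.8% thinned) and 275 CPM, a log2 ratio of −1.35 (−1.67 to −1.03). Pvalb, the calcium buffer of proprioceptors and some touch neurons, was at 11.5 against 143 CPM, a ratio of −3.64 (−4.62 to −2.79). Against Ntrk2 large neurons the background was 693 of 8921 genes higher (7.77%) and 598 lower (6.70%), and of 16 listed genes entered 8 were called lower and 1 higher. The lower ones included Scn1a, Scn4b, Kcna1, Pvalb, Slc17a7, Hapln4 and Cacna1h, and the higher one was the NT-3 receptor Ntrk3, with a ratio of 1.56. The median ratio of the list was −1.01 there, beside 0.01 over all genes.

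On the nociceptor side, the 89 cells carried a tetrodotoxin-resistant sodium channel at a level nearer to the Trpv1 class than to the other large classes. Scn10a, the Nav1.8 channel that carries action potentials in nociceptors (chromosome 9, 119608456 to 119719322), was found in 73 of 89 cells (82.0%, 72.5 to 89.4%, and 38.2% thinned), with a median of 3 UMIs and a maximum of 31. Its level was 533 CPM, against 115, 394 and 14.2 CPM in large neurons without CGRP, CGRP neurons with Trpv1 and Ntrk2 large neurons, ratios of 2.21, 0.44 and 5.23. Scn11a, the persistent-current channel Nav1.9, was at 251 CPM, between the 124 CPM of large neurons without CGRP and the 433 CPM of CGRP neurons with Trpv1. Of 20 genes of small unmyelinated nociceptors, 11 were entered against large neurons without CGRP, with 4 called higher (Scn10a, Scn11a and Plxnc1 among them) and 1 lower (Runx1). The call of Scn11a, at a ratio of 1.02, was lost with a Nefh minimum of 3 UMIs (0.56), with a minimum of 1000 CPM for Nefh and Calca (0.39), with up to 1 Calca UMI allowed in the comparison class (0.77) and without 12 cells described with the subgroups (0.19). In the comparison with CGRP neurons with Trpv1, 12 were entered, with P2rx3 called higher and Tac1, Gfra3 and Runx1 lower, and against Ntrk2 large neurons 8 of 10 were called higher and 0 lower. The medians were 0.58, −0.36 and 2.52.

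Of 15 genes known from peptidergic A-fibre neurons of dorsal root ganglia, those entered were called in 1 direction in all 3 comparisons. Against large neurons without CGRP, 7 of 8 entered genes were called higher and 0 lower (median 2.31), among them Scn10a, Bmpr1b, Fam19a1, Prokr2, Kit and Htr3a, with Ntrk3 at −0.47. Against CGRP neurons with Trpv1, 5 of 8 were called higher and 0 lower (median 2.94), and against Ntrk2 large neurons all 8 of 8 (median 2.89). Fam19a1, a secreted chemokine-like protein also among the study's markers, was found in 42.7% of cells at 135 CPM, and its ratio to large neurons without CGRP of 1.23 became −0.039 when the conditions on Trpv1, Trpm8 and Trpa1 were dropped. Prokr2, a prokineticin receptor, was found in 28.1% at 89.0 CPM, and Bmpr1b, a BMP receptor, in 22.5% at 25.8 CPM, with no UMI in Ntrk2 large neurons and a log2 ratio there of at least 2.86. Smr2, Adra2a, Oprk1, Sstr2, Ptgfr, Chrna7 and Gpr26 had too few cells with a UMI to be entered in any of the comparisons.

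Genes of both sides were detected in the same cells. Scn10a and Piezo2 occurred together in 67 of 89 cells (75.3%, 65.0 to 83.8%), against 19.3% of large neurons without CGRP, 18.2% of CGRP neurons with Trpv1 and 13.6% of Ntrk2 large neurons. Thinned to 1000 UMIs the share was 16.9% (9.75 to 26.3%), against 4.97, 4.18 and 1.52%. Thy1 and Scn10a occurred together in 60 of 89 cells (67.4%), against 9.94, 5.92 and 13.6%, and Scn10a with Scn8a, the nodal channel Nav1.6, in 51.7%, against 9.94, 5.57 and 12.1%. The 3 comparison classes were cut by the levels of Nefh and Calca and differ in depth, which moves such shares. Whether the pairs met more often than the separate share of each gene would give was not tested. Piezo2 is not confined to large neurons, and was found in 91.7% of the subgroup led by Mrgpra3 and Mrgprd.

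**Figure D3:**
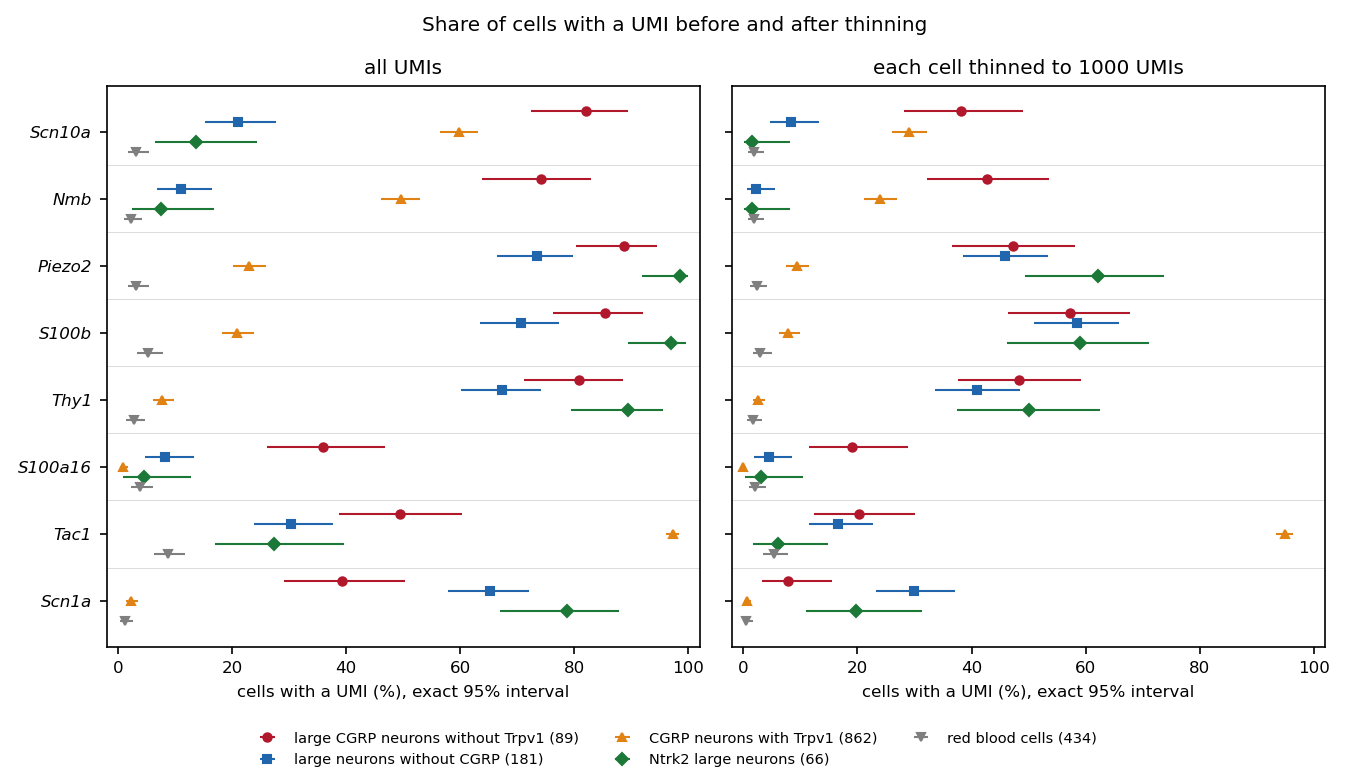
Share of cells with a UMI of 8 genes, with all UMIs (left) and with each cell thinned to 1000 UMIs (right), in the 4 classes and in red blood cell barcodes, with exact binomial 95% intervals as bars. After thinning, Scn10a and Nmb stand at 38.2% and 42.7% in the 89 large CGRP neurons, beside 8.29% and 2.21% in large neurons without CGRP.

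Among the neuropeptides, the cells differed from CGRP neurons with Trpv1 less in CGRP-like peptides than in substance P, galanin and PACAP. Tac1, the substance P gene, was found in 49.4% of the 89 cells (20.2% thinned) at 435 CPM, with a median of 0 and a maximum of 78 UMIs. In CGRP neurons with Trpv1 it was found in 97.3% (95.01% thinned) at 7110 CPM, a log2 ratio of −4.03 (−4.17 to −3.90), and in red blood cell barcodes in 8.76%. Gal, the galanin gene, was at 55.5 against 773 CPM (−3.80), Adcyap1, the PACAP gene, had a ratio of −3.32, and Cartpt one of −1.47, with 49.7% of the Cartpt UMIs in 1 cell. When the conditions on Trpv1, Trpm8 and Trpa1 were dropped, the ratio was −1.62 for Tac1, −1.95 for Gal and −0.97, under 2-fold, for Cartpt, while Adcyap1 was not recomputed. Calcb, the gene of beta CGRP, was found in 62.9% of the 89 cells at 504 CPM, a ratio of −0.67.

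Nmb, the gene of neuromedin B, a bombesin-like peptide (chromosome 7, 80902227 to 80905076), was not lower than in CGRP neurons with Trpv1, unlike Tac1. It was found in 74.2% of the 89 cells (42.7% thinned) at 559 CPM, with a median of 2 and a maximum of 63 UMIs. The level was 340 CPM in CGRP neurons with Trpv1 (ratio 0.72, under 2-fold), 53.8 CPM in large neurons without CGRP (3.38, 2.98 to 3.80) and 7.11 CPM in Ntrk2 large neurons (6.30). Of 17 neuropeptide genes in the table, 6 were entered against large neurons without CGRP with 5 called higher and 0 lower (median 2.34), and 6 against CGRP neurons with Trpv1 with 0 higher and 4 lower (median −2.40). Against Ntrk2 large neurons 5 of 5 were called higher (median 2.85), of which Tac1 came under 2-fold (0.54) when that class needed only 1 Ntrk2 UMI. Gal came under 2-fold against large neurons without CGRP (0.42) without cells holding selected myelinating glia markers. Sst and Vip had a UMI in 1 cell each and Nppb in 2, while Npy and Penk had none in 89 cells.

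The machinery of dense-core vesicles was less distinctive. Of 14 such genes, 13 were entered against large neurons without CGRP, with Scg2, Vgf and Resp18 called higher and Chgb lower. Scg2, the granin secretogranin II, was found in 74.2% of the 89 cells at 1258 CPM, beside 228 CPM in large neurons without CGRP, 1289 CPM in CGRP neurons with Trpv1 and 67.5 CPM in Ntrk2 large neurons. Pcsk1, the prohormone convertase PC1/3, was higher than in CGRP neurons with Trpv1 by 2.11, and Pam, which amidates peptides including CGRP, was lower by a ratio of −1.77. The medians of the list were 0.16, 0.34 and 0.06 in the 3 comparisons. Of 6 genes of CGRP receptor subunits, the receptor Calcrl had a UMI in 2 of 89 cells, its partner Ramp1 in 0, Ramp2 in 3, Ramp3 in 2 and the calcitonin receptor Calcr in 0, few enough that levels could not be compared at this depth. Crcp, an intracellular receptor component that is also a subunit of RNA polymerase III, was found in 50.6% at 88.1 CPM and was the only gene of the list entered, with ratios of 0.31, −0.04 and 0.52 and no call.

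Of the receptors for inflammatory mediators, a prostacyclin and a prostaglandin receptor were higher than in the other large classes. Ptgir, the prostacyclin receptor (chromosome 7, 16906490 to 16910905), was found in 51 of 89 cells (57.3%, 46.4 to 67.7%, and 14.6% thinned) at 150 CPM. It was found in 4.97% of large neurons without CGRP at 14.4 CPM (ratio 3.38, 2.62 to 4.25), in 26.8% of CGRP neurons with Trpv1 at 87.9 CPM (0.77), and in 1 UMI over 66 Ntrk2 large neurons (6.99, 4.49 to 12.30). Ptger4, a prostaglandin E2 receptor, was found in 22.5% at 24.9 CPM, with ratios of 1.89, 0.09 and 2.39. Of 14 genes of this list, Ptgir and Ptger4 were the only ones entered, and both were called higher, against each of the other large classes. Ptgir was rare in those classes and was entered because it was frequent in the 89 cells, so this tally does not speak for the list.

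Growth factor receptors were each detected in part of the 89 cells. Ngfr, the p75 neurotrophin receptor, was found in 77.5% (39.3% thinned) at 562 CPM and exceeded the 3 classes by 1.59, 1.94 and 1.38. Kit, the stem cell factor receptor, was found in 37.1% (19.1% thinned) at 89.0 CPM, beside 6.73 CPM in large neurons without CGRP (3.73, 2.63 to 5.08) and 132 CPM in CGRP neurons with Trpv1 (−0.57). Ret, the receptor of the GDNF family, was found in 37.1% at 139 CPM, with ratios of −0.97 and −1.31 to those classes. Kit and Ret occurred together in 10 cells, Kit alone in 23, Ret alone in 23 and neither in 33. These counts do not show that Kit and Ret mark separate cells, since a cell without a UMI may still hold the transcript. Of the cells with Ret, 9 were in the subgroup of 12 led by Mrgpra3 and Mrgprd, which held no Kit UMI. Of the 20 cells with Bmpr1b, 18 also held Kit. Gfra3, the artemin co-receptor of small peptidergic neurons, was at 27.8 CPM against 481 CPM in CGRP neurons with Trpv1, a ratio of −4.12 (−4.70 to −3.59) that became −1.56 without the conditions on Trpv1, Trpm8 and Trpa1.

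Of the serotonin receptors, Htr3b, the partner subunit of Htr3a, was found in 21.3% of cells at 43.1 CPM and Htr1b, the Gi-coupled receptor on which triptans act, in 36.0% at 54.6 CPM. Against large neurons without CGRP, Htr3a, Htr3b and Htr1b were called higher and none lower of 4 entered (ratios 2.41, 1.90 and 1.58). Against Ntrk2 large neurons Htr3a and Htr1b were called higher and Htr1d and Htr7 lower of 5, Htr3b was not called, and the median was 0.10. Htr3a and Htr3b occurred together in 14.6% of the 89 cells and in 19.7% of Ntrk2 large neurons. Htr1b was at a similar level in CGRP neurons with Trpv1 (0.19), and Htr1d, another triptan target, was at 16.3 CPM with a ratio of −1.74 to Ntrk2 large neurons. Of 18 receptors that inhibit sensory neurons, 6 were entered against large neurons without CGRP and none was called. Compared with CGRP neurons with Trpv1, the muscarinic receptor Chrm2 was called higher (2.03) and the cannabinoid receptor Cnr1 lower.

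Piezo2, the channel of touch and proprioception, and Asic3, an acid-sensing channel, were both frequent. Piezo2 was found in 88.8% of the 89 cells (80.3 to 94.5%) at 581 CPM, with 0 to 47 UMIs per cell and a median of 4. This was below the 953 CPM of large neurons without CGRP (−0.71, −0.86 to −0.57) and the 862 CPM of Ntrk2 large neurons (−0.57) and above the 131 CPM of CGRP neurons with Trpv1 (2.14). Piezo1 had no UMI in the 89 cells. Asic3 (chromosome 5, 24413392 to 24417835) was found in 77.5% (33.7% thinned) at 432 CPM, against 247, 187 and 217 CPM in the 3 classes, ratios of 0.81, 1.21 and 0.99. Both genes occurred in 68.5% of cells, against 38.7, 12.5 and 48.5%, and after thinning in 13.5%, against 11.6, 1.51 and 4.55%.

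P2rx3, the ATP-gated channel of nociceptors, was found in 29.2% at 36.4 CPM, 1.18 above CGRP neurons with Trpv1. P2ry1, an ADP receptor, was at 30.6 CPM against 140 CPM in large neurons without CGRP, a ratio of −2.20. Of the 24 mechanosensitive, acid-sensing, ATP-gated and TRP channel genes, P2ry1 was the only one of 11 entered to be called against large neurons without CGRP. Set against CGRP neurons with Trpv1, Piezo2, Asic3, P2rx3 and P2ry1 were called higher and Trpm4 lower of 11.

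Voltage-gated sodium channels of both fibre types were present together. Scn8a was found in 59.6% at 146 CPM, with a ratio of 0.17 to large neurons without CGRP and 3.01 to CGRP neurons with Trpv1, and the auxiliary subunit Scn4b had ratios of −0.31 and 3.49. Of 11 sodium channel genes, 10 were entered in each comparison. Scn10a and, just past 2-fold, Scn11a were called higher and Scn1a and Scn3a lower against large neurons without CGRP. Scn1a, Scn8a and Scn4b were among 4 called higher, and Scn2a1 and Scn3a were called lower, against CGRP neurons with Trpv1.

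Kcnt2, a sodium-activated potassium channel (chromosome 1, 140246158 to 140612067), had the highest ratio of all genes entered against large neurons without CGRP. It was found in 36.0% of the 89 cells with 66 UMIs (63.2 CPM), against 1 UMI over 181 cells, a log2 ratio of 6.04 with an interval of 3.51 to 11.36. Kcnt2 was also 1.33 above CGRP neurons with Trpv1. Kcnk18, the background potassium channel TRESK, was found in 30.3% at 55.5 CPM, 2.15 above large neurons without CGRP, while Kcnk1 was below that class (−1.13) and above the CGRP neurons with Trpv1 (2.80). Of 31 potassium and HCN channel genes, 3 of 21 entered were called higher and 2 lower against large neurons without CGRP, 9 and 4 of 24 against CGRP neurons with Trpv1, and 6 and 9 of 25 against Ntrk2 large neurons. Of 13 calcium channel genes, 0 were called higher and 1 lower (Cacna2d3) of 9 entered against large neurons without CGRP. Cacna2d2 and Cacnb1 were called lower of 8 against CGRP neurons with Trpv1, and Cacna2d1 was called higher and Cacna1h and Cacna2d3 lower of 9 against Ntrk2 large neurons.

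Receptors for fast transmitters differed between the large classes in GABA-A and glutamate receptor subunits. Gabrg1 had no UMI in the 89 cells and 46 UMIs in the 66 Ntrk2 large neurons, a ratio of at most −4.25. Of 10 GABA-A genes, 0 were called higher and 4 of 8 entered lower against Ntrk2 large neurons, 0 and 2 of 6 against large neurons without CGRP, and 2 and 1 of 5 against CGRP neurons with Trpv1. Slc17a6, the vesicular glutamate transporter VGLUT2, was at 341 CPM with ratios of −0.41, 0.17 and −0.18. Of 14 glutamate genes, Gria1 was called higher and Gria3 and Grik1 lower of 10 entered against large neurons without CGRP. Gria1, Grik1 and Grik4 were called higher and Gria3 and Slc17a7 lower of 11 against Ntrk2 large neurons, and none of 9 was called against CGRP neurons with Trpv1. Gria3, an AMPA receptor subunit, was at 16.3 CPM against 41.3 CPM in large neurons without CGRP and 54.5 CPM in Ntrk2 large neurons.

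Among 27 transcription factors in the table, 4 were called higher and 4 lower of 17 entered against large neurons without CGRP. Pou4f3, a POU factor of sensory neurons, was found in 40.4% of the 89 cells at 216 CPM, with ratios of 1.31, 0.85 and 1.49 to the 3 classes. Bcl11b and Nfib were at 68.0 and 109 CPM, ratios of 2.14 and 1.78 to large neurons without CGRP, and Bcl11a was called higher as well. Runx1, a factor of small nociceptors, had ratios of −1.61 to large neurons without CGRP and −2.43 to CGRP neurons with Trpv1. Mef2c was lower in all 3 comparisons (−2.01, −1.71 and −2.82), and Maf, a factor of touch neurons, was 3.44 above CGRP neurons with Trpv1 and −1.27 from Ntrk2 large neurons.

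Several S100 proteins besides S100a16 were abundant. S100a11 was found in 58.4% of the 89 cells at 248 CPM, with ratios of 3.01 and 4.39 to the other large classes and −0.40 to CGRP neurons with Trpv1. S100a13 was found in 78.7% (50.6% thinned) at 816 CPM, against 178, 395 and 161 CPM in the 3 classes. Of 15 genes of S100 and calcium-binding proteins, 5 of 11 entered were called higher against large neurons without CGRP (S100a1, S100a6, S100a11, S100a13 and S100a16) and Pvalb and Hpca lower. S100a6 was at 1997 CPM, between the 793 CPM of large neurons without CGRP and the 3333 CPM of CGRP neurons with Trpv1.

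Of 15 cytoskeleton genes, 12 were entered in each comparison and 1, 1 and 2 called higher, with 0 called lower. Mapt, the tau gene, was at 835 CPM and 1.04 and 1.31 above the other large classes, and peripherin, Prph, was at 2090 CPM with ratios of −0.11, −0.45 and −0.02. Cplx2, complexin 2 of the release machinery (chromosome 13, 54371349 to 54383917), was found in 79.8% of the 89 cells at 506 CPM and exceeded the classes by 1.92, 2.54 and 5.93. Its relative Cplx1 was at 721 CPM with ratios of −0.74, 1.97 and −0.91. Syt4 and Syt9 were called lower than in CGRP neurons with Trpv1, Syt4 at 354 against 1169 CPM.

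Immediate early genes, which dissociation is known to induce, were lower than in CGRP neurons with Trpv1. Some were higher than in the other large classes. Gap43, a growth cone protein, was found in 89.9% of the 89 cells (76.4% thinned) at 2842 CPM, against 722, 1932 and 400 CPM, ratios of 1.98, 0.56 and 2.83. The middle value was −0.07 when the conditions on Trpv1, Trpm8 and Trpa1 were dropped. Jun, Fos and Atf3 were lower than in CGRP neurons with Trpv1 by ratios of −1.36, −1.49 and −1.55, and of 10 genes entered there 6 were called lower and 0 higher (median −1.42). Against large neurons without CGRP, Junb, Fosb and Gap43 were called higher of 9. Compared with Ntrk2 large neurons, Junb, Fosb, Egr1 and Gap43 were called higher and 0 lower of 10 (median 0.87). Whether dissociation moved these genes differently between the classes was not tested.

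**Figure D4:**
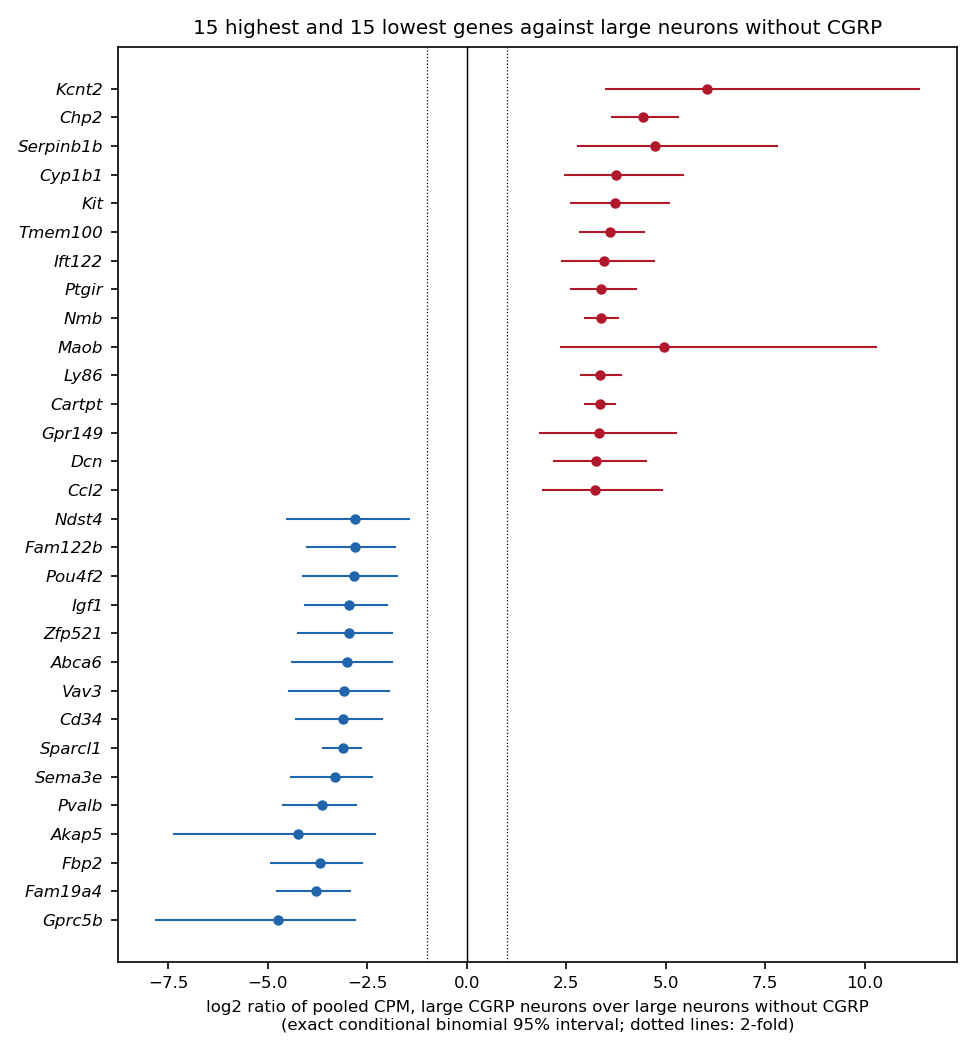
Log2 ratio of pooled CPM, large CGRP neurons over large neurons without CGRP, for the 15 highest and the 15 lowest genes entered, with exact 95% intervals as bars and ratios as observed. Genes with 1 or 2 UMIs in a class, such as Kcnt2 and Gprc5b, have wide intervals, from 3.51 to 11.36 and from −7.82 to −2.81.

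The 15 genes that ranked highest against large neurons without CGRP were Kcnt2, Chp2, Serpinb1b, Cyp1b1, Kit, Tmem100, Ift122, Ptgir, Nmb, Maob, Ly86, Cartpt, Gpr149, Dcn and Ccl2. Chp2, a calcineurin B homologue also among the study's markers, was found in 60.7% of the 89 cells (25.8% thinned) at 288 CPM, against 13.5 CPM (4.42, 3.65 to 5.31). It had no UMI in Ntrk2 large neurons, a log2 ratio of at least 6.34. Tmem100, a membrane protein known to modulate TRP channels, was found in 48.3% at 174 against 14.4 CPM (3.60, 2.84 to 4.46). Dcn, which encodes the matrix proteoglycan decorin and was on the list of fibroblast markers, was at 72.8 against 7.69 CPM, and the whole fibroblast list summed to 82.3 CPM. In CGRP neurons with Trpv1, Dcn was higher still, with a ratio of −2.19.

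The 15 that ranked lowest there were Gprc5b, Fam19a4, Fbp2, Akap5, Pvalb, Sema3e, Sparcl1, Cd34, Vav3, Abca6, Zfp521, Igf1, Pou4f2, Fam122b and Ndst4. Fam19a4, known from low-threshold C-fibre mechanoreceptors, was at 11.5 against 159 CPM (−3.79, −4.77 to −2.94), and the surface glycoprotein gene Cd34 at 8.61 against 75.0 CPM (−3.12). Gprc5b had 2 UMIs against 53 (−4.73, −7.82 to −2.81). Igf1 was at 9.57 against 74.0 CPM and Sema3e, a repulsive guidance cue, at 9.57 against 95.1 CPM. The large neurons without CGRP are themselves a mixture defined by zeros, so these values describe a pool.

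Against CGRP neurons with Trpv1, the highest ratios after S100a16 (7.06, 6.16 to 8.13) were those of Mctp1 (5.31, a membrane protein with C2 domains), Fgf9 (5.27), Vwc2l, Mgst1, Thy1, Cpne6, Lgi3, F730043M19Rik and Fam19a1. Cpne6, a calcium-dependent copine, was found in 82.0% of the 89 cells at 910 against 31.8 CPM (4.84, 4.58 to 5.11). The lowest were Lpar1, Aldh1a3, St3gal4, Gfra3, Tac1, Slc10a6, Kcnk3, Gal, Gpx3 and Casp1. Lpar1, a lysophosphatidic acid receptor, had 2 UMIs in the 89 cells (1.91 CPM) against 159 CPM (−6.37, −9.42 to −4.52), and Aldh1a3, a retinoic acid enzyme, had a ratio of −4.80. Gpx3 was found in 38.2% against 79.5%, at 75.6 against 956 CPM.

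Against Ntrk2 large neurons, the highest included Chp2, Nmb, Chl1, Cplx2, Ptgir, Scn10a, Kit, Emp3 and S100a11. Chl1, an adhesion molecule of the L1 family, was found in 68.5% of the 89 cells at 261 against 3.55 CPM (6.20, 4.64 to 8.49), and Emp3 had 88 UMIs against 0, a ratio of at least 4.57. The lowest were Ntng1, Rem2, Tmem108, Lgi2, Igf1, Lypd1, Gabrg1, Sema7a, Shox2 and Gm16065. Ntng1, a netrin-related adhesion protein, was found in 3.37% against 56.1% (−5.21, −7.11 to −3.82), and Shox2, a factor of touch neurons, had 2 UMIs against 42. Sema7a had no UMI in the 89 cells, a ratio of at most −4.15.

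Set against all 3766 other neurons, where 208 of 7984 genes (2.61%) were called higher and 224 (2.81%) lower, the most concentrated genes found in at least 30% of the 89 cells were S100a16, Mctp1, Chp2, Fam19a1, Sema5a, Trappc3l, Serpinb1a, Cgnl1, Creg2, Htr3a, Smpd3, Kcnt2, Thy1, Cplx2 and Ngfr. S100a16 was at 318 against 22.1 CPM (3.85, 3.64 to 4.06) and Mctp1 at 161 against 12.6 CPM (3.67). Trappc3l, related to a vesicle tethering complex, was found in 62.9% at 726 CPM (2.98) and the protease inhibitor gene Serpinb1a in 61.8% at 459 CPM (2.92). Scn10a, which many other neurons share, had a ratio of only 0.47.

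The 89 cells were not uniform. Clustering of their own counts gave 5 subgroups of 28, 20, 15, 14 and 12 cells, whose leading genes describe them and were not tested, and 4 to 6 groups under other settings. Which cells fell together depended on the setting, with an adjusted Rand index (1 for identical groupings, near 0 for random ones) of 0.44 to 0.68. With 5 principal components in place of 10, 10 of the 28 cells and 7 of the 15 stayed together in the best matching group, against 18 of the 20, 13 of the 14 and 9 of the 12. At that setting the subgroups of 28 and 15 were the least settled. In the subgroup of 28, led by Maob, Bcl11a, Lrrc61, Gria1 and Ly6e, Kit was found in 75.0%, Prokr2 in 57.1%, Bmpr1b in 42.9% and Scg2 in every cell. In the 20 cells whose leading genes included Ncan, A330076H08Rik, Kcnq5 and Gpr153, Ngfr was found in every cell, at 1288 CPM, with Nefh at 5554 CPM. Their median mitochondrial share of 3.73% was above that of the other subgroups.

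The 15 cells led by Cygb, Tesc, Tpm2, Fam150b and Pcp4 were the deepest, with a median of 19068 UMIs. Scn1a was found in 73.3% of them, Htr3a in 60.0%, Htr1d in 33.3% and Asic3 and S100b in every cell, while Kit was found in 6.67%. The 14 cells led by Hbb-bt, Gabra5, Ccdc34, Hba-a1 and Zswim7 were the shallowest, with a median of 3750 UMIs. They held no Scn11a UMI and the highest Calca level, 10162 CPM, and 2 of their leading genes encode haemoglobin. None of the 5 was given a cell type name.

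The 12 cells whose leading genes included Mrgpra3, Mrgprd, Tmem45b and Paqr5 went against the label in their pooled levels, although Thy1 was found in 5 of them, and the best matching group held from 10 to 19 cells when all 89 were clustered under other settings. Mrgprd and Mrgpra3 are receptors of non-peptidergic skin nociceptors and of itch neurons, and they were found in 66.7% and 33.3% of the 12 cells. Thy1 was at 59.3 CPM, S100b at 85.6 CPM and Nefh at 692 CPM there, while Htr3a, Ptgir, Chp2, Fam19a1 and Kit had no UMI. Scn11a was at 896 CPM, Ret at 586 CPM and Calca at 1693 CPM. These 12 cells met the rule at a median of 11366.5 UMIs, a depth at which 5 UMIs are a low level.

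Without those 12 cells, an alternative chosen after the data had been seen, the remaining 77 had Scn10a in 83.1%, Thy1 in 87.0%, S100b in 89.6%, S100a16 in 40.3%, Htr3a in 44.2% and Ptgir in 66.2%. Scn11a was at 141 CPM in place of 251, and its ratio to large neurons without CGRP was 0.19 in place of 1.02. Ret was at 62.7 CPM in place of 139, with a ratio of −2.11 in place of −0.97, and Mrgprd had a ratio of −2.89 in place of 0.91. The levels of Scn11a, Ret and Mrgprd given for the 89 cells thus rest on these 12, whereas those of Piezo2 and Thy1 did not.

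**Figure D5:**
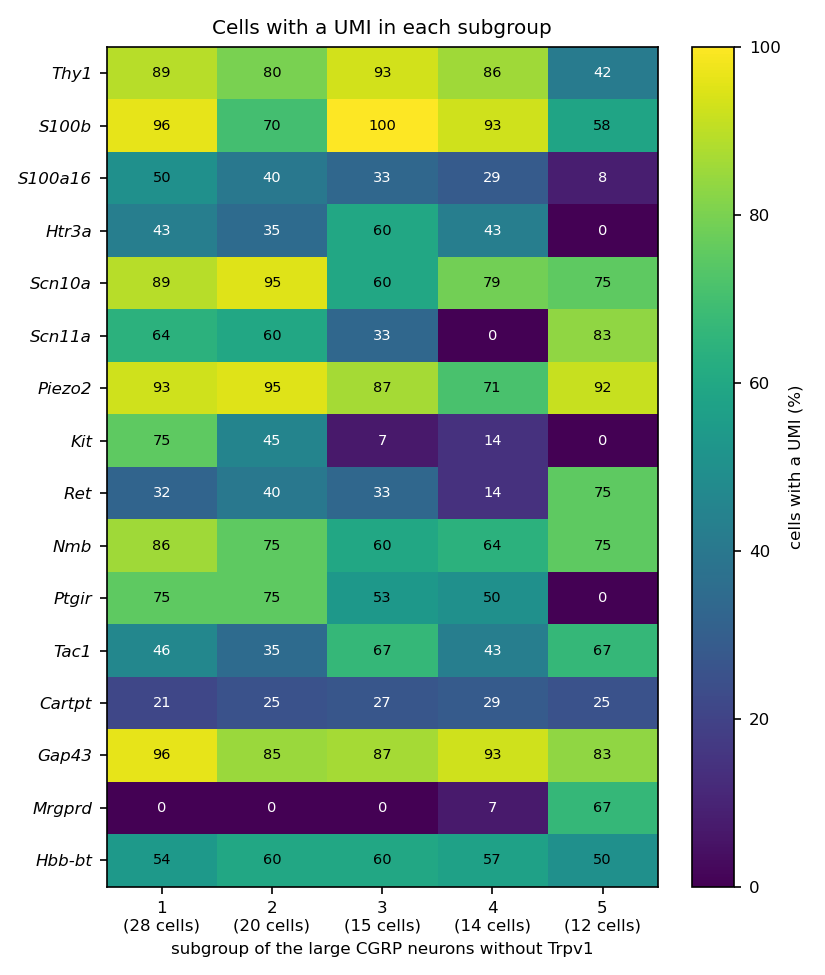
Share of cells with a UMI, as colour and printed rounded percent, of 16 genes (rows) in the 5 subgroups of the 89 large CGRP neurons (columns). Piezo2 is found in 71.4% or more of every subgroup, Kit in 75.0% of the first, and Thy1 in 41.7% of the subgroup led by Mrgpra3 and Mrgprd.

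The zeros required of Trpv1, Trpm8 and Trpa1 moved more ratios than leaving out the 12 cells did. When they were dropped (226 cells), 14 of 65 recomputed ratios past 2-fold came under it, against 1 of 64 without the 12 cells. Among them Ngfr was at 0.63, 0.98 and 0.42 to the 3 classes, Cplx2 at 0.77 to large neurons without CGRP, and Kcnt2, Asic3 and Ret at 0.38, 0.39 and −0.21 to CGRP neurons with Trpv1. Jun and Fos were at −0.94 and −0.75 to that class, and Htr3a and Fam19a1 at 0.49 and 0.71 to Ntrk2 large neurons.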

How the data were processed

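Poly(A) RNA of dissociated trigeminal neurons was measured by Drop-seq in 9 runs. The authors deposited 1 table of UMI counts per gene and barcode, not normalized, with 21536 genes and 6997 barcodes of at least 1000 UMIs. Per the labels, bcl2fastq 2.17, STAR 2.5.3a and Seurat 1.4.0.16 were used with mm10. No column of the table names a run, so the barcodes were treated as 1 pooled sample. The counting by gene keeps overlapping genes and near copies uncertain.

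The members, gene lists and named genes were chosen with earlier results of these data known. Counts were summed over the cells of a class and divided by the summed UMIs. Genes with a mean share of at least 10% were entered, a class under 3 UMIs was set to 3 for ranking and calling, and named genes were the 15 highest and lowest (10 in the other comparisons), the 15 most concentrated against all other neurons, the 5 leading genes of each subgroup and genes of the lists. Intervals were exact (Clopper-Pearson, Poisson and conditional binomial, 95%) and cover counting error only. Cells were thinned to 1000 UMIs with seed 1. Subgroups used 1000 variable genes, 10 principal components, 15 neighbours and resolution 1 (scanpy 1.11.5, igraph 0.11.9). Glial barcodes had at least 3 of 6 glial genes and red blood cell barcodes at least 10% haemoglobin, both with under 2 neuronal genes. No doublet caller was run. Some genes are not reported here. Gene positions are from GENCODE M21. The comparison code was tested on simulated data. Python 3.11.15, numpy 2.4.6, scipy 1.17.1 and pandas 2.3.3 were used.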

Additional observations from a re-analysis of the deposited data

How the results depend on the processing

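No paired analysis was possible because the barcodes carry no run number and no result comes from a test. The number of large CGRP neurons was 126 with a Nefh minimum of 3 UMIs, 57 with a minimum of 10, 226 without conditions on Trpv1, Trpm8 and Trpa1, 133 with a minimum of 1000 CPM in the cell for both genes in place of 5 UMIs, and 41 without cells holding selected myelinating glia markers. Against large neurons without CGRP, the calls higher and lower were 359 and 340. The higher calls became 572 with a Nefh minimum of 10 and 579 without cells holding selected myelinating glia markers. Both became 590 and 545 by the mean CPM of each cell, 804 and 1069 without a filter on shares, and 171 and 124 with a mean share of at least 20%. Against CGRP neurons with Trpv1, the 424 and 401 became 223 and 127 without the Trp channel conditions, 1871 and 1060 without a filter, and 228 and 181 at 20%, and the lower calls 623 with a Nefh minimum of 10. Against Ntrk2 large neurons, the 693 and 598 became 1146 and 1135 without a filter and 371 and 297 at 20%, and the lower calls 911 by the mean CPM of each cell. Thinned to 2000 UMIs (78 cells), the shares were 57.7% for Scn10a, 62.8% for Thy1, 62.8% for Piezo2 and 70.5% for S100b. Of 1133 recomputed values of 90 ratios, 785 stayed within the interval first given, and the others lay outside it. Of the 65 ratios past 2-fold, 2 changed sign, Thy1 (−0.088) and Fam19a1 (−0.039) against large neurons without CGRP, both without the Trp channel conditions, and 19 came under 2-fold in at least 1 alternative. Beside those given in the report, these were Fam19a1 against large neurons without CGRP (0.88) and Asic3 against CGRP neurons with Trpv1 (0.87) without cells holding the glia markers, Htr3a against Ntrk2 large neurons without those cells (0.98) or the deepest 10% of cells (0.94), Ret against CGRP neurons with Trpv1 without the deepest 10% (−0.82) or with a Nefh minimum of 3 (−0.92), and Gal (0.30) and Mrgprd (0.40) against Ntrk2 large neurons with a Nefh minimum of 3 and of 10. Of the 25 ratios under 2-fold, 14 changed sign in at least 1 alternative, among them Mrgprd, S100b and Asic3 against large neurons without CGRP, Gap43 and Scn11a against CGRP neurons with Trpv1, and Thy1 (−0.64) and Ret (−0.96) against Ntrk2 large neurons. The cause was not tested. Depth limits every share, and a gene without a UMI in 89 cells is not shown to be absent.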
